A study of Saccharomyces cerevisiae with 6 samples.

Results

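The genes described here encode the proteasome of budding yeast: the subunits of its core and regulatory particles, a group of factors that build or bind it, and Rpn4, the transcription factor that activates its genes. The members were chosen by function, as a list of systematic gene names with no threshold on measured values, and all 42 of the 42 had a row among the 5917 of the deposited table. All 42 also passed the filter on low values, at least 1 TPM (a transcript abundance corrected for length and set to a fixed total per library) in at least 3 libraries, which left 5707 genes tested. They were divided by role into 7 core alpha subunits, 7 core beta subunits, 6 RPT ATPases, 4 further subunits of the regulatory base, 9 lid subunits, 5 assembly factors, 3 associated proteins and RPN4.

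Saccharomyces cerevisiae was grown to log phase at 30 °C in synthetic defined medium and exposed for 60 min to 20 uM edelfosine, a synthetic ether lipid related to lysophosphatidylcholine, or to the vehicle, 0.095% ethanol. Each treatment had 3 libraries of poly(A)-selected RNA that the labels call biological replicates. Replicates 1 and 2 were the laboratory strain W303 and replicate 3 was the laboratory strain BY4741, both labelled wild type in the sample titles. Strain and replicate 3 cannot be told apart, and BY4741 had 1 library per treatment.

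The proteasome degrades proteins marked with ubiquitin. Its core particle is a barrel of stacked alpha and beta rings, with the peptide-cutting sites of 3 beta subunits facing inward. The regulatory particle caps the barrel: its base holds the RPT ATPases, which unfold substrates and thread them into the core, and its lid removes the ubiquitin chain. Rpn4 binds a short promoter element called PACE (GGTGGCAAA) upstream of proteasome genes and is itself a very short-lived substrate of the proteasome. In yeast this makes a negative feedback loop, in which cells with too little proteasome activity accumulate Rpn4. The RPN4 gene is in turn activated by the transcription factors Hsf1, Yap1, Pdr1 and Pdr3. Transcript levels were measured here, not Rpn4 protein or proteasome activity.

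Levels below are TPM after scaling of each library by a trimmed mean of M values (scaled TPM), and a change is a difference in log2(scaled TPM + 1), edelfosine minus vehicle, which understates the change of low genes. A gene was called higher or lower at a Benjamini-Hochberg adjusted p under 0.05 over all 5707 genes in the limma fit, with strain as a covariate. The response was broad: 27.3% of all tested genes were called higher and 27.3% lower, with a median change of 0.01, which makes a member's change a distance from the typical gene. Without scaling the median change was 0.55 and 49.7% of genes were called higher. The number of genes at 1 TPM or more was 5550 in the lowest and 5717 in the highest library, the depth of sequencing is not known, and the strain labels were checked on MET17, which was listed at 0 in both BY4741 libraries.

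Against this background of 27.3% called higher, 36 of the 42 members were called higher with edelfosine, 0 were called lower and 6 were not called. All 42 changes were positive, with a median of 0.66 (a fold of 1.58) against 0.01 over all tested genes. The changes ran between 0.11 for RPN8, a lid subunit, and 1.94 for RPN4. The 3 edelfosine libraries lay above all 3 vehicle libraries for 39 of the 42 members, against 30.3% of all tested genes. The exceptions were RPN1, RPN8 and ADD66. By point value 26 members were at least 1.5-fold higher, and 4 were at least 2-fold higher, namely RPN4, SCL1, ECM29 and RPN6. PUP2 was the lowest of the 26, and 1416 of the 5707 tested genes had a larger change than PUP2. RPN6 was the lowest of the 4, and 753 genes had a larger change than RPN6, so rises of this size were common outside the members. With TPM as deposited all 42 were called higher, where 49.7% of all genes were. With 1 library left out, the 36 calls became 16 without vehicle replicate 1, 19 without vehicle replicate 2 and 24 to 31 without each of the others.

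**Figure D1:**
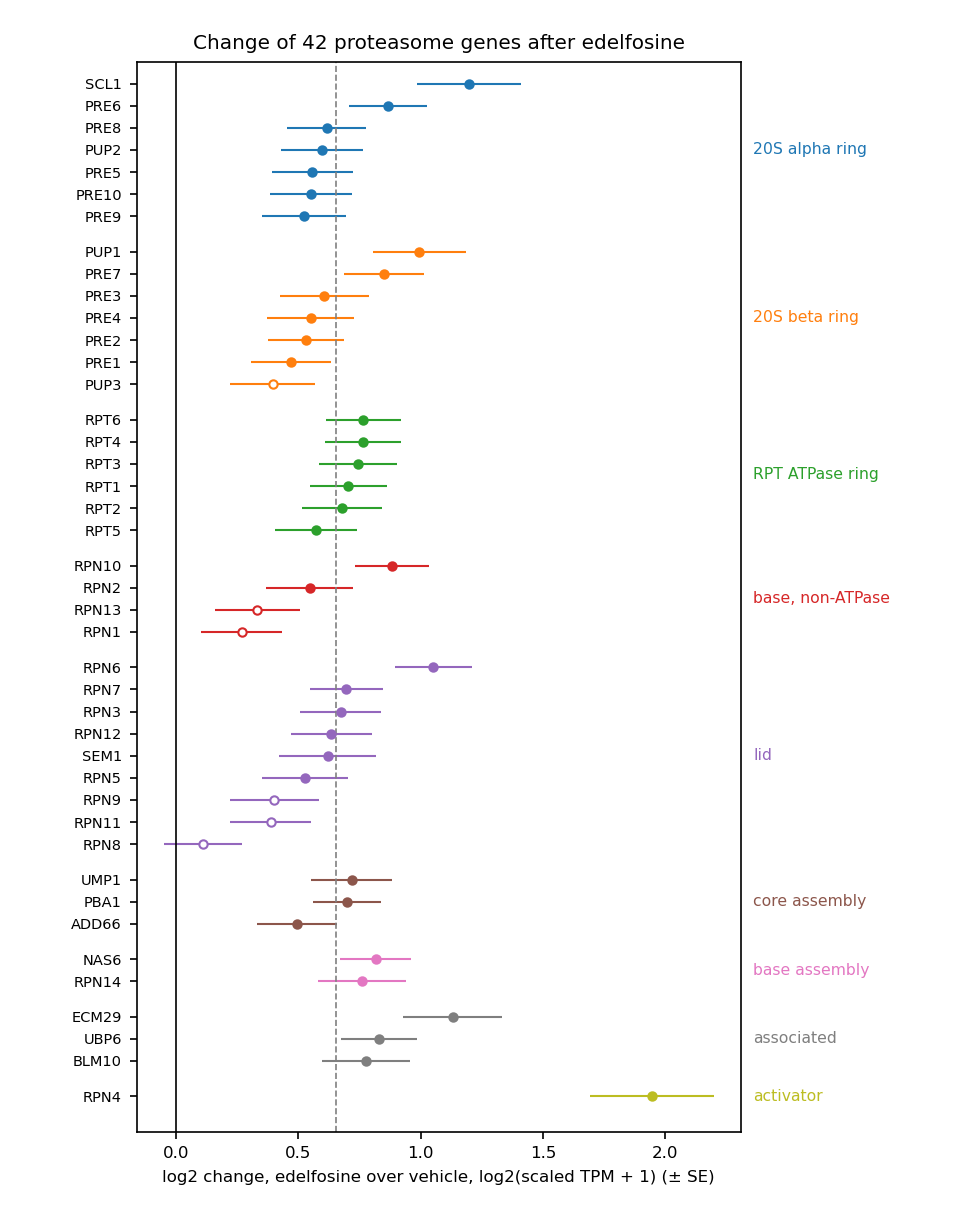
Log2 change of each of the 42 members (x axis, edelfosine minus vehicle, log2 of scaled TPM + 1), grouped by sub-complex down the page, with bars for the standard error of the limma fit (n = 3 libraries per treatment). Filled points were called at adjusted p under 0.05 and open points were not; the dashed line is the median of the members, 0.66. RPN4 stands apart at 1.94, and most subunits lie within a narrow band below 1.

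RPN4 (YDL020C) changed most among the members. Its coding sequence lies at chrIV:415113-416708 in R64, on the minus strand. It had 95.3, 163 and 119 scaled TPM in the 3 edelfosine libraries, against 27.4, 26.8 and 41.1 scaled TPM in the 3 vehicle libraries. The groups did not overlap, and the highest vehicle library was the BY4741 one. The mean level was 126 ± 34.4 with edelfosine and 31.8 ± 8.07 with vehicle (SD, n = 3 each). The log2 change was 1.94 ± 0.25 (SE), a fold of 3.85, with an adjusted p of 0.00158 in the limma fit. A total of 235 of the 5707 genes had a larger change. RPN4 was the 1 member called higher when the change was tested against a threshold of 1.5-fold, a test that called 10.7% of all genes higher.

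The alpha ring, which forms the gate of the core particle, had all 7 of its subunits called higher, where 27.3% of all tested genes were. Its median log2 change was 0.60, with a range of 0.52 to 1.20. SCL1 (YGL011C) changed most: it had 207, 272 and 215 scaled TPM with edelfosine, against 121, 83.0 and 97.7 scaled TPM with vehicle. Its change was 1.20 ± 0.21 (SE, limma adjusted p = 0.00415), with no overlap of the groups. Same-numbered libraries differed by 0.77, 1.70 and 1.13, but the numbers were not taken to pair the W303 libraries. PRE6 (YOL038W) followed, with 336, 395 and 303.4 scaled TPM with edelfosine and 203, 204 and 159 scaled TPM with vehicle, a change of 0.87 ± 0.16 (SE; limma adjusted p = 0.00494). PRE9 (YGR135W), which encodes the only alpha subunit that yeast can live without, changed least, with 486, 467 and 428 scaled TPM with edelfosine against 291, 360 and 311 scaled TPM with vehicle. Its change was 0.52, and the groups did not overlap. PRE8, PUP2, PRE5 and PRE10 rose by 0.62, 0.60, 0.56 and 0.55 on the log2 scale. Of the 7 calls, those of SCL1 and PRE6 were kept whichever single library was left out.

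Of the 7 beta subunits 6 were called higher, where 27.3% of all tested genes were. The median log2 change of the 7 was 0.55. All 3 subunits that carry active sites rose. PUP1 (YOR157C), the trypsin-like subunit, had 108, 148 and 125 scaled TPM with edelfosine and 69.4, 54.6 and 64.7 scaled TPM with vehicle. Its groups were well apart, and its change of 1.00 ± 0.19 (SE; limma adjusted p = 0.00554) was the largest of the ring. PRE3 (YJL001W), the caspase-like subunit, had 590, 538 and 465 scaled TPM with edelfosine and 324, 415 and 309 scaled TPM with vehicle, a change of 0.61. PRE2 (YPR103W), the chymotrypsin-like subunit, had even values within each treatment, 353, 354 and 358 scaled TPM with edelfosine and 229, 251 and 256 scaled TPM with vehicle. Its change was 0.53. The active-site subunits had a median change of 0.61 and the other 4 beta subunits of 0.51. Among these 4, PRE7, PRE4 and PRE1 rose by 0.85, 0.55 and 0.47. The calls of PUP1 and PRE7 were kept whichever single library was left out. PUP3 (YER094C) was not called, with a change of 0.40 ± 0.17 (SE; limma adjusted p = 0.0953), although its 547, 549 and 467 scaled TPM with edelfosine lay above its 375, 464 and 353 scaled TPM with vehicle.

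The 6 RPT ATPases, which form the hexameric motor of the base, had closely similar changes. All 6 were called higher, where 27.3% of all tested genes were. Their changes ran between 0.57 for RPT5 and 0.77 for RPT6, with a median of 0.72. The RPT5 call was lost without edelfosine replicate 1 or vehicle replicate 1 or 2, and those of RPT1 and RPT2 without vehicle replicate 1. RPT6 (YGL048C) had 314, 284 and 266 scaled TPM with edelfosine and 168, 172 and 166 scaled TPM with vehicle. The groups were far apart for RPT6, and none of the 6 ATPases had overlapping groups. Of all tested genes 30.3% were higher with edelfosine without overlap. Their levels, which are per transcript length, differed between the highest and lowest ATPase by 2.01-fold with edelfosine and 1.98-fold with vehicle.

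The other subunits of the base did not move evenly. RPN10 (YHR200W), a ubiquitin receptor at the interface of base and lid, had 212, 215 and 173 scaled TPM with edelfosine and 111, 106 and 105 scaled TPM with vehicle. Its change was 0.88 ± 0.15 (SE; limma adjusted p = 0.00385), with no overlap. RPN13 (YLR421C), another ubiquitin receptor, had 413, 403 and 354 scaled TPM with edelfosine and 277, 339 and 312 scaled TPM with vehicle, and its change of 0.33 was not called (limma adjusted p = 0.146) although the groups did not overlap. RPN1 (YHR027C), the large scaffold that binds ubiquitin and shuttle factors, had 49.7, 47.6 and 38.2 scaled TPM with edelfosine and 36.1, 35.0 and 40.3 scaled TPM with vehicle. Its groups overlapped: both W303 edelfosine libraries lay above both W303 vehicle libraries, and the BY4741 pair differed by -0.08. RPN1 was not called, with a change of 0.27 ± 0.17 (SE; limma adjusted p = 0.209). RPN2, the other large scaffold, rose by 0.55. The receptors and scaffolds were not tested against each other.

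In the lid 6 of 9 subunits were called higher, where 27.3% of all tested genes were. The median log2 change of the 9 was 0.62. RPN6 (YDL097C), which clamps the lid onto the core and the ATPase ring, changed most, with 184, 199 and 148 scaled TPM with edelfosine and 86.0, 83.3 and 83.4 scaled TPM with vehicle. The vehicle libraries were nearly equal, and the change was 1.05 ± 0.16 (SE; limma adjusted p = 0.00248). RPN7, RPN3, RPN12 and RPN5, structural subunits of the lid, rose by 0.70, 0.68, 0.64 and 0.53. SEM1 (YDR363W-A), a small acidic subunit, had the highest level per length of all members, 1536, 1544 and 1294 scaled TPM with edelfosine and 867, 1146 and 847 scaled TPM with vehicle. Its change was 0.62 ± 0.20 (SE; limma adjusted p = 0.0365), without overlap.

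The lid subunits not called were RPN9, RPN11 and RPN8. RPN11 (YFR004W), the enzyme that cuts ubiquitin chains from substrates, had 234, 245 and 210 scaled TPM with edelfosine and 158, 184 and 185 scaled TPM with vehicle, a change of 0.39 (limma adjusted p = 0.0898). RPN8 (YOR261C), with which Rpn11 forms a heterodimer, had 192, 193 and 182 scaled TPM with edelfosine and 156, 185 and 184 scaled TPM with vehicle. The BY4741 pair of RPN8 differed by -0.02, and its groups overlapped. Its change of 0.11 ± 0.16 (SE; limma adjusted p = 0.578) was the smallest of the 42, and 2554 of the 5707 genes had a larger one. RPN9 (YDR427W) had 204, 170 and 141 scaled TPM with edelfosine and 118, 139 and 129 scaled TPM with vehicle, and its change was 0.40 (limma adjusted p = 0.101). The groups of RPN9 and RPN11 did not overlap. With TPM as deposited these 3 were called higher as well, so their call depends on the scaling.

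**Figure D2:**
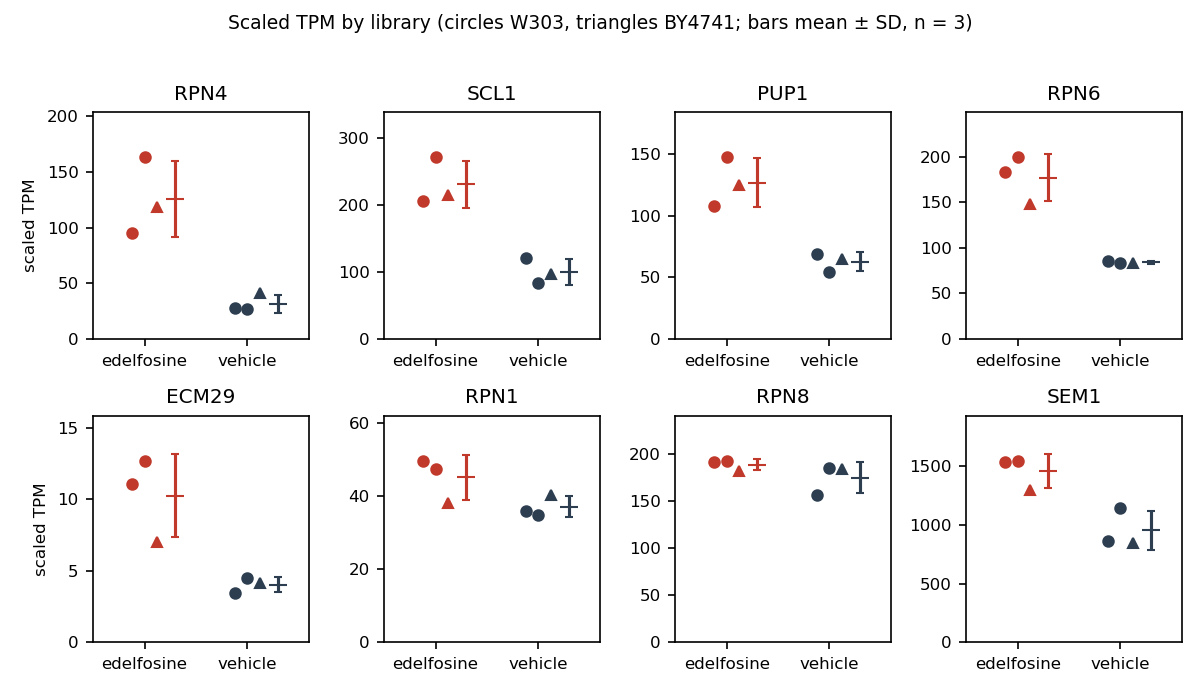
Scaled TPM per library (y axis) for 8 members, edelfosine left and vehicle right in each panel; circles are W303, triangles BY4741, and bars the mean ± SD (n = 3). RPN4, SCL1, PUP1, RPN6, ECM29 and SEM1 show separate groups, whereas RPN1 and RPN8 overlap, with BY4741 near or below its vehicle library.

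All 8 assembly factors and associated proteins were called higher, where 27.3% of all tested genes were. The median log2 change of the 8 was 0.77. The ADD66 call was lost without edelfosine replicate 2 or 3 or any vehicle replicate. The RPN14 call was lost without vehicle replicate 2 or 3, that of BLM10 without vehicle replicate 1 or 2, and that of UMP1 without vehicle replicate 1. Among the factors that build the core, UMP1 (YBR173C), which sits inside the immature barrel, had 459, 398 and 342 scaled TPM with edelfosine and 243, 255 and 225 scaled TPM with vehicle, a change of 0.72. PBA1 and ADD66 encode the paired chaperone of the alpha ring and rose by 0.70 and 0.50. ADD66 (YKL206C) was the only one of the 8 whose groups overlapped, where 30.3% of all tested genes were higher without overlap. It had 49.5, 63.0 and 37.0 scaled TPM with edelfosine and 38.0, 35.8 and 29.5 scaled TPM with vehicle. The base chaperones NAS6 and RPN14 rose by 0.82 and 0.76, NAS6 (YGR232W) with 82.4, 86.5 and 84.3 scaled TPM with edelfosine and 44.1, 45.9 and 52.9 scaled TPM with vehicle.

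The associated proteins included the member with the largest change after RPN4 and SCL1 in log2(scaled TPM + 1), a scale that understates low genes such as this member. ECM29 (YHL030W), which tethers the regulatory particle to the core, had 11.1, 12.7 and 7.06 scaled TPM with edelfosine and 3.47, 4.48 and 4.19 scaled TPM with vehicle, a change of 1.13 ± 0.20 (SE; limma adjusted p = 0.00454). The groups did not overlap, but the BY4741 edelfosine library was the lowest of the 3. BLM10 (YFL007W), an alternative cap of the core, had 11.5, 11.5 and 9.04 scaled TPM with edelfosine and 4.78, 5.98 and 6.70 scaled TPM with vehicle, a change of 0.78. UBP6 (YFR010W), a deubiquitinase docked on the base, had 87.4, 106 and 89.0 scaled TPM with edelfosine and 51.8, 49.9 and 55.2 scaled TPM with vehicle, a change of 0.83. ECM29 and BLM10 were the members with the lowest levels per length.

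Summed, the members made up 1.45%, 1.43% and 1.16% of all deposited TPM in the edelfosine libraries and 0.565%, 0.548% and 0.604% in the vehicle libraries. The means were 1.35% ± 0.159 with edelfosine and 0.572% ± 0.029 with vehicle (SD, n = 3 each), a ratio of 2.35. In scaled TPM the sums were 10881 ± 1046 with edelfosine and 7075 ± 502 with vehicle. More RNA of these genes per cell, more cells with such RNA and less RNA of other genes cannot be told apart in bulk libraries. The order of the members by level gave a Spearman correlation of 0.970 between the group means over the 42 genes, which share the same libraries. The median core level was 2.05, 2.03 and 1.97 times the median regulatory level with edelfosine, and 1.98, 2.21 and 2.04 times with vehicle. These ratios overlapped between the treatments.

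The change in the BY4741 pair was below the mean of the W303 pairs for 39 of the 42 members, or 92.9%. The same held for 50.5% of all tested genes and 65.0% of the other 1521 genes called higher. That mean does not depend on how the W303 libraries are paired. The change in each single W303 pair does, so BY4741 was not compared with the single pairs. The median change of the members was 0.73 over the W303 pairs and 0.52 in the BY4741 pair. In a limma fit with a strain by treatment term, however, 0 members were called and 0 had an unadjusted p under 0.05, the lowest being 0.0884 for ECM29. That fit called 0 of all 5707 genes and gave 176 an unadjusted p under 0.05 (3.08%). For the strain effect on levels in the limma fit, 0 of 42 members were called, where 24 of 5707 genes were (0.421%), and 2 members had an unadjusted p under 0.05, against 11.5% of all genes. No difference between the strains in the proteasome response was thus detectable with 1 BY4741 library per treatment.

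The promoters were examined for PACE because it is the element that Rpn4 is known to bind. Windows of 300 bases before the start codon were read from the RefSeq R64 reference genome, on both strands; the authors' own build is not given in the sources used here, and the sequences of W303 and BY4741 may differ from R64. The exact motif stood in 28 of the 42 member windows (66.7%) and in 73 of the 6005 windows of all protein-coding genes (1.22%). It lay between 84 and 183 bases before the start codon, with a median of 122, and on the coding strand in 20 of the 28. Examples follow for the members with the largest changes, for members of the active-site and ATPase rings, and for a pair of members that were not called. Each is the gene's own strand, 5′ to 3′, and capitals mark PACE, or its reverse complement in SCL1.
SCL1 (chrVII:475331-475371, minus strand): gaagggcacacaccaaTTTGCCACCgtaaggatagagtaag
ECM29 (chrVIII:39937-39977, plus strand): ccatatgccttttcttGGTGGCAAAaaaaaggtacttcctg
RPN6 (chrIV:286784-286824, minus strand): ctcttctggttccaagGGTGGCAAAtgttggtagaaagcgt
PRE2 (chrXVI:732178-732218, plus strand): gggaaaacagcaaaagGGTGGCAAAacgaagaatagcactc
RPT3 (chrIV:1261489-1261529, plus strand): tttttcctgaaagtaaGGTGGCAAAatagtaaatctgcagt
PUP3 (chrV:349505-349545, minus strand): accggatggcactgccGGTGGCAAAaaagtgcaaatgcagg
RPN1 (chrVIII:164832-164872, minus strand): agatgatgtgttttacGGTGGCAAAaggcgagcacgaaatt

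The same 9 letters were thus present both upstream of SCL1, which changed by 1.20, and upstream of RPN1 and PUP3, which were not called. All alpha genes but PRE5, all beta genes but PUP1 and all 6 RPT genes had the exact motif. A further 8 members had a match with 1 mismatch, a looser search chosen after the data were seen, which 7.73% of all windows passed. They were PRE5, PUP1, RPN10, RPN13, RPN8, SEM1, PBA1 and UBP6. They include both large and small changes, as the windows of PUP1, RPN10, SEM1 and RPN8 show, with the 9 matched bases in capitals.
PUP1 (chrXV:631885-631925, minus strand): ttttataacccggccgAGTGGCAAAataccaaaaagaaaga
RPN10 (chrVIII:498962-499002, plus strand): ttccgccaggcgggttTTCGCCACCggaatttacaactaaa
SEM1 (chrIV:1202001-1202041, plus strand): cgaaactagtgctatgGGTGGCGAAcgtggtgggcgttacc
RPN8 (chrXV:817079-817119, minus strand): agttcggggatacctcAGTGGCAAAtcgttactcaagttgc

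PUP1 and RPN8 had the same variant of the motif, and their changes were 1.00 and 0.11. The remaining 6 members, UMP1, ADD66, NAS6, RPN14, BLM10 and RPN4 itself, had neither form in the window. All 6 were called higher, where 27.3% of all tested genes were, and their median log2 change was 0.77. Of the 8 members with 1 mismatch 6 were called higher, with a median of 0.66, and of the 28 with the exact motif 24 were, with a median of 0.61. The classes were not tested against each other. The median was thus not higher in the class with the closer match.

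**Figure D3:**
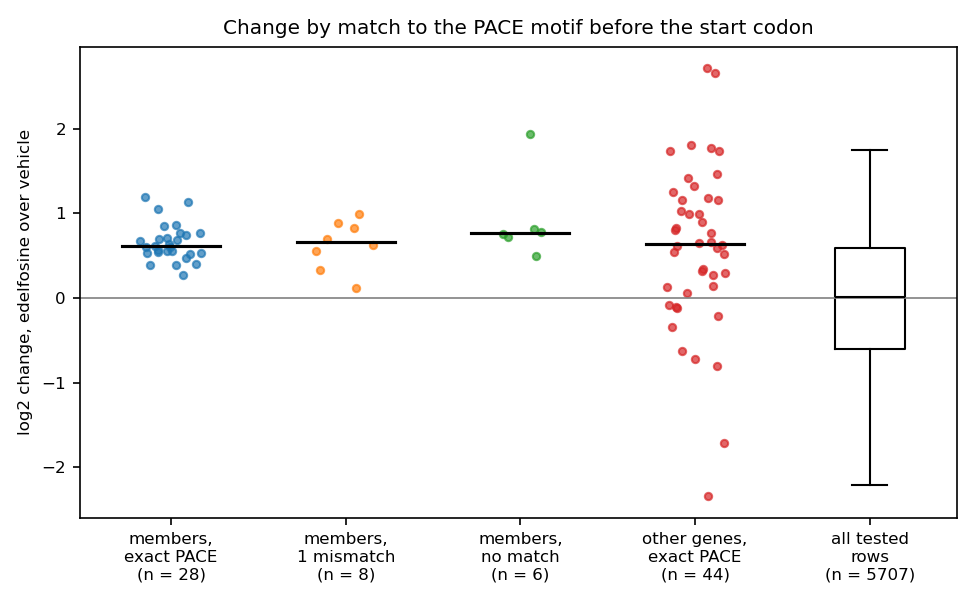
Log2 change (y axis, edelfosine minus vehicle) of members with an exact PACE motif, with 1 mismatch and with neither in the 300 bases before the start codon, of other genes with exact PACE, and of all tested genes as a box with whiskers at the 5th and 95th percentiles. The 3 member classes have medians of 0.61, 0.66 and 0.77, against 0.01 over all tested genes.

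Outside the members 45 genes had exact PACE, of which 44 were tested, 24 were called higher (54.5%) and 5 lower (11.4%), with a median change of 0.64. For 8 of these the same motif also lay upstream of a member on the opposite side, and of these 3 were called higher and 3 lower. Without them 21 of 36 were called higher and 2 lower. Among the genes called higher were CDC48, the segregase that pulls ubiquitylated proteins out of complexes, UBI4, the polyubiquitin gene, UBA1, the ubiquitin-activating enzyme, and YAP1. The following were chosen after their values were seen. The largest rises of the 44 were those of YCL042W and SDH9, by 2.72 and 2.66. PIM1, the mitochondrial Lon protease, SGT2, a factor for tail-anchored proteins, and PDI1, the disulphide isomerase of the endoplasmic reticulum, rose by 1.18, 1.16 and 0.99. NOP14, a ribosome assembly factor whose match is shared with a member, and REB1, a general promoter-binding factor, fell by 2.34 and 0.72. ECM12, GCD1 and PMT1 were also called lower, with changes of -1.71, -0.81 and -0.63. The matches of GCD1 and PMT1 are likewise shared with a member.

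Other motifs were searched in the same windows, on both strands, for the factors that activate RPN4 and for the general stress factors. The Yap1 motif TTACTAA stood in 4 member windows (9.52%) and in 7.84% of all windows. The stress element AGGGG of Msn2 and Msn4 stood in 8 member windows (19.0%) and 22.2% of all windows. The Pdr1 and Pdr3 motif TCCGCGGA stood in 0 member windows and 0.2% of all windows. Only these exact letters were counted, so variant sites would be missed. The Hsf1 motif, taken as the units TTC, GAA and TTC with any 2 bases between neighbours, or its reverse complement, stood in 1 member window, that of RPN4, and in 0.866% of all windows. No match to one motif overlapped a match to another in a member window. The RPN4 sites are shown because RPN4 had the largest change and no PACE; windows of 600 bases added a second Hsf1 match and a Yap1 match. They begin 21, 348 and 374 bases before the start codon, and capitals mark the motif.
RPN4 Hsf1 proximal (chrIV:416709-416737, minus strand): caaaagttTTCTAGAATTTTCaagcaatc
RPN4 Hsf1 distal (chrIV:417036-417064, minus strand): agtgatggTTCTAGAAAGTTCcgtttcgg
RPN4 Yap1 (chrIV:417068-417090, minus strand): gatcgctaTTACTAAtagccgtt

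The transcripts of the factors that act on RPN4 were measured in the same libraries. YAP1, the oxidative stress regulator, had 61.7, 57.7 and 40.7 scaled TPM with edelfosine and 33.2, 27.8 and 27.9 scaled TPM with vehicle, a change of 0.81 (limma adjusted p = 0.00727). Its own window held PACE, 46 bases before the start codon. PDR3, a regulator of drug efflux, rose by 0.80, and HSF1, the heat shock factor, by 0.55. PDR1, the relative of PDR3, had 5.87, 5.92 and 4.61 scaled TPM with edelfosine and 4.54, 3.17 and 3.59 scaled TPM with vehicle, and its change of 0.44 was not called (limma adjusted p = 0.0564). Thus 3 of the 4 were called higher, where 27.3% of all tested genes were. The HSF1 call was lost without edelfosine replicate 3, vehicle replicate 2 or vehicle replicate 3.

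Known targets of the same factors gave a mixed picture, with 6 of 9 called higher and 0 lower, where 27.3% of all tested genes were called higher. The chaperone genes SSA4, HSP82 and HSP42, targets of Hsf1, rose by 4.75, 2.36 and 2.15. Within 600 bases the Hsf1 motif searched here stood before HSP42 but not before SSA4 or HSP82, so it does not find every Hsf1 target. The Msn2 and Msn4 element AGGGG stood before all of them, and in 39.7% of all windows of 600 bases. SSA4 and HSP82 have close paralogs to which reads could be assigned, so their levels are uncertain. PDR5, the drug efflux pump under Pdr1 and Pdr3, had 32.1, 30.3 and 30.1 scaled TPM with edelfosine and 7.75, 7.88 and 15.3 scaled TPM with vehicle, a change of 1.56 (limma adjusted p = 0.00197). SNQ2, another such pump, had a change of 0.70 that was not called (limma adjusted p = 0.0742). Of the Yap1 targets, TRX2 (thioredoxin) and GSH1 (glutathione synthesis) rose by 2.29 and 0.50, whereas TRR1 (thioredoxin reductase) and FLR1 (a drug transporter) had changes of -0.53 and -0.33 that were not called, at limma adjusted p of 0.0988 and 0.107. Within 600 bases the Yap1 motif searched here stood before TRX2 and FLR1 but not before TRR1 or GSH1, so it does not find every Yap1 target. The GSH1 call was lost in 5 of the 6 fits that left out 1 library. SNQ2 was called higher without edelfosine replicate 1, and TRR1 lower without edelfosine replicate 3 or vehicle replicate 3.

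Rpn4 is degraded after ubiquitylation by Ubr2 with its partner Mub1 and the conjugating enzyme Rad6. UBR2 lay near the filter on low values and rose by 0.57, with 3.07, 2.18 and 1.74 scaled TPM with edelfosine and 1.19, 1.34 and 1.10 scaled TPM with vehicle. MUB1 had a change of 0.07 (limma adjusted p = 0.770). RAD6 had 90.8, 69.0 and 83.6 scaled TPM with edelfosine and 122, 144 and 128 scaled TPM with vehicle, and fell by 0.69 (limma adjusted p = 0.0164). The RAD6 call was not kept with TPM as deposited, where its change was -0.09 (limma adjusted p = 0.678), nor without edelfosine replicate 2 or 3 or vehicle replicate 2 or 3. The UBR2 call was lost without vehicle replicate 1 or 2.

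The assembly and regulatory factors outside the 42 included a rise larger than that of any member and also a fall. TMA17, a stress-induced chaperone of Rpt6, had 701, 1048 and 855 scaled TPM with edelfosine and 125, 126 and 147 scaled TPM with vehicle. The groups were far apart, and the change was 2.68 ± 0.21 (SE; limma adjusted p = 0.000419), larger than that of RPN4. FUB1, SPG5, NAS2 and HSM3 rose by 1.31, 1.00, 0.93 and 0.74; NAS2 and HSM3 are chaperones of the base, like NAS6 and RPN14. IRC25 and POC4 encode the partners of another alpha ring chaperone. POC4 had 11.7, 14.5 and 24.7 scaled TPM with edelfosine and 60.6, 66.1 and 53.0 scaled TPM with vehicle, and fell by 1.82 (limma adjusted p = 0.00203). It was also lower with TPM as deposited, by 1.24 on the log2 scale. IRC25 had 79.7, 61.2 and 47.9 scaled TPM with edelfosine and 53.5, 62.4 and 50.2 scaled TPM with vehicle, with overlapping groups and a change of 0.16 (limma adjusted p = 0.488). STS1, which helps bring proteasomes to the nucleus, had a change of 0.11 (limma adjusted p = 0.578). Of these 8 factors 5 were called higher and 1 lower, against 27.3% higher and 27.3% lower among all tested genes.

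**Figure D4:**
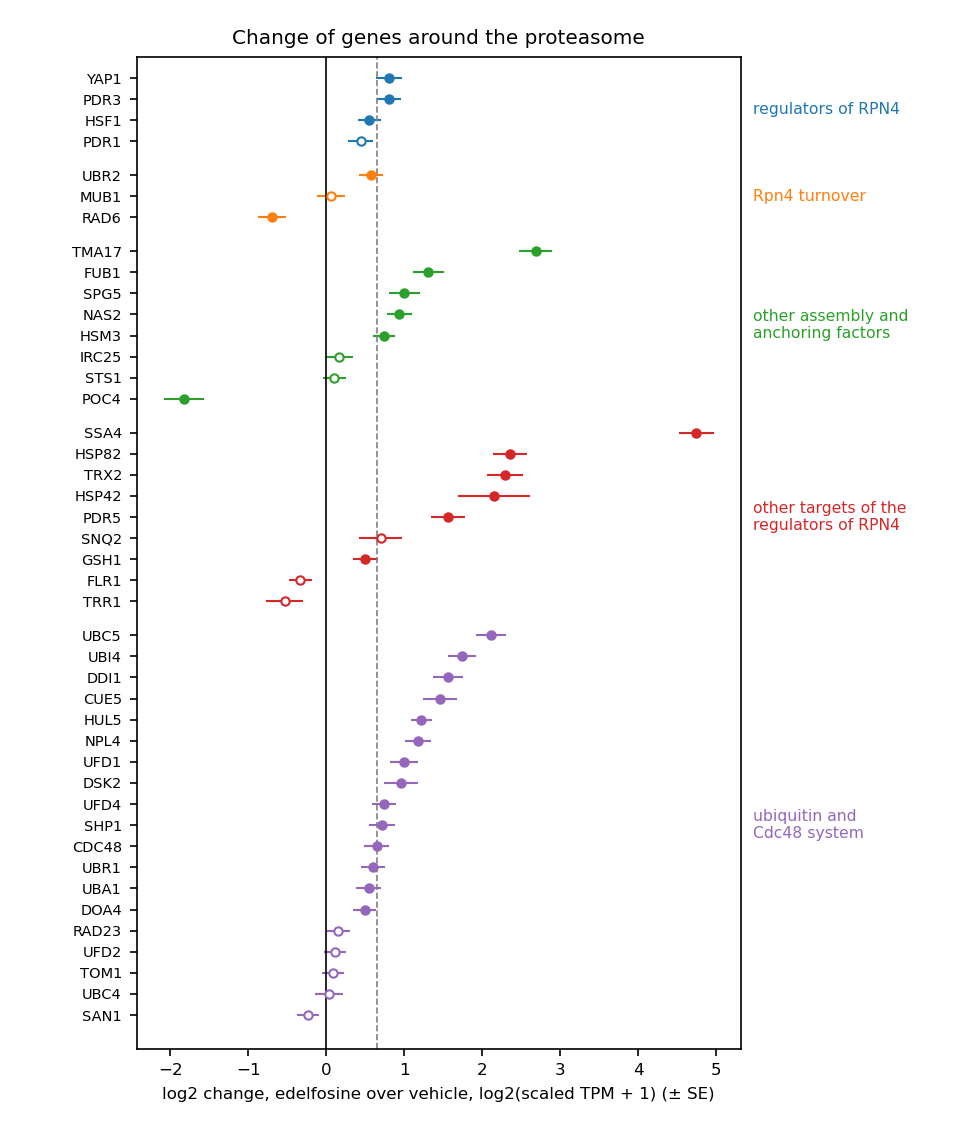
Log2 change (x axis, edelfosine minus vehicle, with SE) of genes outside the 42: other assembly factors, activators of RPN4, factors that degrade Rpn4, targets of the same activators, and the ubiquitin and Cdc48 system. Filled points were called at adjusted p under 0.05; the dashed line is the median of the 42 members, 0.66. SSA4 at 4.75 and POC4 at -1.82 are the extremes.

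Upstream of the proteasome, 14 of 19 genes of the ubiquitin and Cdc48 system were called higher and 0 lower, with a median log2 change of 0.72. Of all tested genes 27.3% were called higher, and this list was drawn up with earlier results of these data known. UBC5, a conjugating enzyme for damaged proteins, had 218, 264 and 143 scaled TPM with edelfosine and 45.7, 47.7 and 44.1 scaled TPM with vehicle. The groups were far apart, and the change was 2.12 ± 0.20 (SE; limma adjusted p = 0.000702). UBC4, its near-identical paralog and chosen after its values were seen, had 1021, 1082 and 949 scaled TPM with edelfosine and 1035, 1079 and 870 scaled TPM with vehicle, a change of 0.04 (limma adjusted p = 0.872). How reads were divided between these paralogs is not known, so both values are uncertain. UBI4 had 559, 610 and 467 scaled TPM with edelfosine and 177, 206 and 115 scaled TPM with vehicle, a change of 1.74; its repeated units are shared with the other ubiquitin genes.

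The shuttle factors DDI1 and DSK2, which carry ubiquitylated proteins to the proteasome, rose by 1.56 and 0.96. RAD23, another shuttle factor, had 58.4, 50.0 and 52.6 scaled TPM with edelfosine and 47.2, 46.7 and 50.1 scaled TPM with vehicle, with overlapping groups and a change of 0.16 that was not called (limma adjusted p = 0.401). The Cdc48 partners NPL4, UFD1 and SHP1 rose by 1.17, 0.99 and 0.72, and CDC48 itself by 0.65. The ligases HUL5, UFD4 and UBR1 rose by 1.22, 0.74 and 0.60. The ligases SAN1, TOM1 and UFD2 were not called, with changes of -0.24, 0.09 and 0.11 and limma adjusted p of 0.184, 0.642 and 0.534. RAD23 and these 3 ligases were named after their values were seen, and with UBC4 they make up the 5 genes of the list that were not called. The receptor CUE5, which links ubiquitylated proteins to autophagy, rose by 1.45, UBA1 by 0.54 and the deubiquitinase DOA4 by 0.49. The calls of CDC48, UBR1 and UBA1 were lost on leaving out vehicle replicate 1 or 2, that of SHP1 without vehicle replicate 2, that of DSK2 without vehicle replicate 3, and that of DOA4 without edelfosine replicate 2 or any vehicle replicate.

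The number of members called depended on single libraries and on the scaling. There were 24, 31 and 24 calls without edelfosine replicates 1, 2 and 3, and 16, 19 and 24 without vehicle replicates 1, 2 and 3. The same fits called 29.8%, 25.3% and 21.6% of all genes higher without edelfosine replicates 1, 2 and 3, and 19.2%, 19.0% and 20.9% without vehicle replicates 1, 2 and 3. Without edelfosine replicate 1 the members thus had fewer calls while all genes had more. Of the 36 members 15 kept their call in all 6 fits: SCL1, PRE6, PUP1, PRE7, RPT3, RPT4, RPT6, RPN10, RPN6, RPN7, PBA1, NAS6, UBP6, ECM29 and RPN4. The core particle had 13 calls with all libraries, 5, 11 and 4 without edelfosine replicates 1, 2 and 3, and 4, 5 and 4 without vehicle replicates 1, 2 and 3. The regulatory particle had 14 calls with all libraries, 10, 12 and 12 without edelfosine replicates 1, 2 and 3, and 6, 8 and 13 without vehicle replicates 1, 2 and 3. The assembly and associated group had 8 calls with all libraries, 8, 7 and 7 without edelfosine replicates 1, 2 and 3, and 5, 5 and 6 without vehicle replicates 1, 2 and 3. On the scale of the total without ribosomal protein genes 14 members were called higher, where 19.7% of all genes were. Over 7 scalings the median member change less the median change of all genes lay between 0.60 and 0.71.

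**Figure D5:**
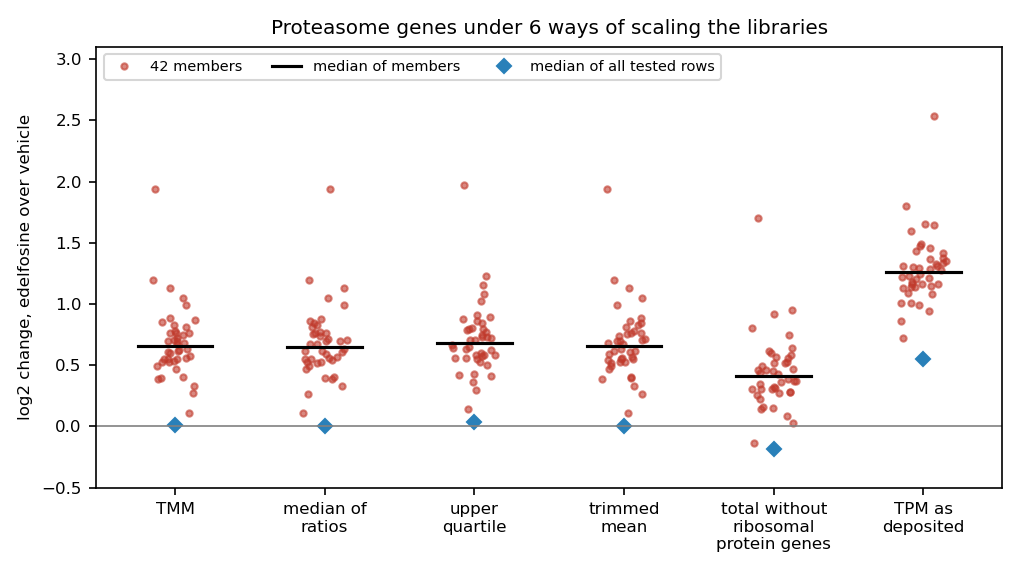
Log2 change (y axis, edelfosine over vehicle) of the 42 members under 6 ways of scaling the libraries; points are members, black lines their median and diamonds the median of all tested genes. The member median lies above the diamond in every column, at 0.66 with TMM, 0.41 with the total without ribosomal protein genes and 1.26 with TPM as deposited, where the diamond is at 0.55.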

How the data were processed

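RNA from 3 edelfosine and 3 vehicle cultures was compared, grouped by the treatment labels. The authors deposited 1 table whose columns each sum to 1000000 and were therefore read as TPM, although it is named as read counts. Kallisto and sleuth are named, with no version, in the submitters' processing notes; a transcript set or build is not given in the sources used here. Counting intervals need a depth, which TPM does not hold. Because the values are not counts, no count model was run.

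Genes that reached 1 TPM in 3 or more libraries (5707) were tested. TMM scaling, without weights, trimmed 30% of the M values and 5% of the A values at each end and gave factors of 1.20 to 1.25 for edelfosine and 0.715 to 0.891 for vehicle libraries. Changes in log2(scaled TPM + 1) were fitted with limma 3.58.1 in R 4.3.3, with terms for strain and treatment, an empirical Bayes trend, and 3 residual and 3.41 prior degrees of freedom. P-values were Benjamini-Hochberg adjusted over all tested genes. The fit was tested on simulated data. The p-values set each change against the spread left between these samples after the strain and treatment terms, drawn towards a trend over all genes. With 1 BY4741 library per treatment they hold no measure of replicate spread within BY4741.

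The rule for members uses gene names and no values, but it and the lists were drawn up with earlier results of these data known. The naming rule took all members, the lists around RPN4, and of the ubiquitin list UBI4, CDC48 and every called gene; other genes are marked as named after their values were seen. No member's coding sequence overlaps another gene in R64, and none had values identical to another row. Of the 5917 rows 5911 matched an R64 locus tag. Alternatives covered scaling, filter, pseudocount, design, fold threshold and left-out libraries.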

Additional observations from a re-analysis of the deposited data

How the results depend on the processing

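With 42, 14, 19 and 8 genes in the sets of members, core particle, regulatory particle, and assembly and associated proteins, the calls changed as follows. With TPM as deposited, 2837 of all genes were called higher and 760 lower, and the median member change was 1.26. With the total without ribosomal protein genes as the scale, 14 members were called higher, of which 4 core, 5 regulatory and 4 assembly or associated, with a median of 0.41. Tested against 1.5-fold, 1 member was called, with 0 core, 0 regulatory and 0 assembly or associated genes, and of all genes 610 higher and 706 lower. Without replicate 1 of both treatments 15 members were called higher (4 core, 4 regulatory), where 1459 of 5614 tested genes were. Without replicate 2 of both it was 18 members (5 core, 8 regulatory, 4 assembly or associated), where 987 of 5620 tested genes were. Without replicate 3 of both, which is W303 alone, it was 24 members (4 core), where 1166 of 5583 tested genes were. Over the fits without 1 library, members called higher ranged from 16 to 31, core 4 to 11, regulatory 6 to 13, and assembly and associated 5 to 8. Over both kinds of fit, all genes higher ranged from 987 to 1681 and lower from 1038 to 1678, the median member change from 0.57 to 0.76 and the RPN4 change from 1.65 to 2.19. Fewer samples leave fewer degrees of freedom in these fits; otherwise the cause was not tested. Over the 24 alternatives, of which W303 alone and without replicate 3 of both are the same fit, the RPN4 change lay between 1.65 and 2.54 (limma adjusted p 0.000224 to 0.0168). Only RPN4 kept its call in all of them. Counting RPN4, 10 members kept their call in all but the 1.5-fold test and the scale without ribosomal protein genes. ECM29 also kept its call in those where it was tested, but was not tested with the filter of 10 TPM. Signs turned for FLR1 (0.19), SAN1 (0.30) and TRR1 (0.076) with TPM as deposited, and for UBC4 (-0.21), UFD2 (-0.12), TOM1 (-0.11), RAD23 (-0.089), STS1 (-0.14), IRC25 (-0.087), MUB1 (-0.17) and RPN8 (-0.13) on the scale without ribosomal protein genes. Without replicate 1 of both treatments they turned for STS1 (-0.00065), IRC25 (-0.036) and MUB1 (-0.12). Over the fits without 1 library, MUB1 ranged from -0.072 to 0.27, TOM1 from -0.014 to 0.18 and UBC4 from -0.0075 to 0.075. None of these was called. Same-numbered samples correlated at 0.332, 0.0518 and 0.510 after removal of group means, so the numbers were not taken to pair the samples, although each edelfosine library correlated best with its own number; vehicle replicate 2 correlated best with edelfosine replicate 1 (0.320). A replicate block gave 29 members called higher, where 1488 of all 5707 genes were, and no strain term 33, where 1434 were. TMM over all rows, PACE with 1 mismatch and the 600-base window were chosen after seeing the data.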
